A study of Mus musculus with 14 samples.

Results

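Smooth muscle and pacemaker cell genes were followed in jejunal RNA as a set of 32, named by a fixed list of symbols and each read from its brightest probe set with a single gene symbol. All 32 were measured among 22180 genes, and all 32 were among the 18010 genes tested. The arrays came from 7 mice carrying LRH-1 K289R and 7 mice with LRH-1 WT, with 1 array per mouse. The gene Nr5a2 encodes LRH-1, a transcription factor of the nuclear receptor family that is active in gut epithelium, and K289R puts an arginine in place of a lysine to which SUMO can be joined. Mice of both genotypes were between 19 and 21 weeks old, had free access to food, were killed at 7 am and gave snap-frozen jejunum. The labels name no strain, sex or litter, and do not say how the K289R allele was made or whether it was limited to a cell type. The series title calls the data hepatic, whereas every sample is labelled jejunum.

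The wall of the small intestine holds an inner circular and an outer longitudinal layer of smooth muscle, a thin muscle sheet under the mucosa and muscle cells in villi and vessels. Contraction starts when calcium and calmodulin switch on myosin light chain kinase, which phosphorylates the regulatory light chain of smooth muscle myosin, and myosin phosphatase reverses it. Interstitial cells of Cajal, which lie between the muscle layers and depend on the receptor KIT, set the rhythm of slow waves through the calcium-activated chloride channel ANO1. The transcription factor SRF, with its coactivator myocardin, turns on many contractile genes through the CArG box, a sequence of 10 letters with 6 that are A or T between a pair of C and a pair of G.

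Upstream sequences of members with such a box are shown because the motif is the known control element of contractile genes. RefSeq promoter windows of build GRCm38.p6 were found for 28 of the 32 genes, all but Actg2, Myh11, Myocd and Tagln. In the 250 bases before an annotated start, 3 of the 28 genes (10.7%) held a CArG box, and 7 (25%) held a box or a variant with 5 of the 6 middle letters A or T. Over all 27025 genes with a window the shares were 1.62% and 9.78%. The motif reads as the same pattern on both strands, and a match describes letters only. Capitals mark the box or variant in the 250 bases before the start, written 5′ to 3′ along the gene's strand. Shown are Myl9, Vcl and Ldb3, the 3 genes with a box, and Acta2 and Synm, which have variants and whose arrays did not overlap between genotypes.
Acta2 (chr19:34255374-34255623, minus strand): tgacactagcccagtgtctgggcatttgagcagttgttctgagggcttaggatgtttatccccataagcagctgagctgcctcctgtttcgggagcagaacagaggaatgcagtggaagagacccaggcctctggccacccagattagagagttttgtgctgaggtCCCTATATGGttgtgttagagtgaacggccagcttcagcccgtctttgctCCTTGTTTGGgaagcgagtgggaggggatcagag
Synm (chr7:67759743-67759992, minus strand): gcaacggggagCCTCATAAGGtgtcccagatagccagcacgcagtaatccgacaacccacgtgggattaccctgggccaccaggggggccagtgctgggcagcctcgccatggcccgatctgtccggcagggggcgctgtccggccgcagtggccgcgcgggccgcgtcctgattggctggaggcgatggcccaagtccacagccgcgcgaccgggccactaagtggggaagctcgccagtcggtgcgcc
Myl9 (chr2:156775214-156775463, plus strand): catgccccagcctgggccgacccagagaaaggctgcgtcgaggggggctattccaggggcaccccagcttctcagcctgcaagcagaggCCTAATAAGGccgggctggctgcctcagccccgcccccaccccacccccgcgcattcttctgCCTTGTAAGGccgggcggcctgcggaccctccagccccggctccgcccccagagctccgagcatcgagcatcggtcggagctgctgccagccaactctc
Vcl (chr14:20929148-20929397, plus strand): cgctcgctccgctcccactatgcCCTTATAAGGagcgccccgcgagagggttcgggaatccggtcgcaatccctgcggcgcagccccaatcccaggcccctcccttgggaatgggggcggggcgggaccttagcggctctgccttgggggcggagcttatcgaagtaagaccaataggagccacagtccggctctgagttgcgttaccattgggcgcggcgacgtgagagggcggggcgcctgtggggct
Ldb3 (chr14:34588682-34588931, minus strand): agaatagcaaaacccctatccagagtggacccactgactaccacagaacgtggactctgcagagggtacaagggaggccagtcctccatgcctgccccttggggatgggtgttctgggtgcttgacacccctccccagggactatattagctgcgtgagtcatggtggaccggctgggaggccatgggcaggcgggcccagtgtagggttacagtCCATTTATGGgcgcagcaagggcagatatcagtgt
The variants of Acta2, the smooth muscle alpha actin gene, began 84 and 34 bases before the start. The box of Myl9, the regulatory light chain gene, began 161 bases before the start and its variant 99 bases before it. The box of Vcl began 227 bases before the start, and that of Ldb3 35 bases before one annotated start and 109 bases before the other.

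Median intensities per array ran from 168 to 174, and log2 values of arrays within a genotype had a Pearson r of 0.984 to 0.993. Intestinal epithelium was plain on every array, with Vil1 at 12.88 to 13.03 in K289R and 12.92 to 13.10 in WT on the log2 scale. A marker of the distal gut was less uniform over the labelled jejunum samples, and their position along the gut was not tested. Fabp6, the ileal bile acid binding protein gene, was above a log2 intensity of 8 on 4 arrays, K289R replicates 2 and 7 and WT replicates 1 and 6, and the counts, median difference and median r of the 32 genes were also computed without these arrays. Ranges, SDs, gene pairs and other lists are given over all 14 arrays only. Nr5a2 itself averaged 10.18 ± 0.19 in K289R and 10.32 ± 0.18 in WT (SD, n = 7 each), which does not check the labels, since a point mutation need not alter its transcript. All levels and differences below are log2 intensities, differences are K289R minus WT, and levels of different genes are not compared because probe sets respond unequally. The labels call the arrays biological replicates.

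The 32 genes were on the whole higher in K289R, though no single one passed the test over all genes. Of the 32, 29 were higher and 3 lower, where 48% of all genes tested were higher, and their median difference was 0.21, against −0.0039 over all genes tested. By limma, 0 of the 32 passed an adjusted p of 0.05, a rule that called 8 of 18010 genes (0.0444%). At an unadjusted p under 0.05, 20 of the 32 were higher and 0 lower, where the same rule called 4.43% of all genes tested as higher and 4.05% as lower. The members vary together, so these counts do not stand for 32 separate observations. The list was also chosen with earlier results of these data known, so the counts beside the shares of all genes are a description, not a test. In bulk tissue, more cells of a type and more RNA per cell cannot be told apart. The rise was not particular to these genes. Lists of fibroblast, pericyte, endothelial and lymphocyte genes had medians of 0.17, 0.18, 0.15 and 0.29, and epithelial genes −0.0022. Without the 4 arrays with Fabp6 signal, 13 of the 32 were higher at an unadjusted p under 0.05, as were 3.73% of all genes tested in that fit, and the median difference was 0.19. On those 10 arrays Acta2 differed by 0.17, Synm by 0.32 and Ano1 by 0.34 (limma adjusted p = 0.683, 0.614 and 0.677).

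**Figure D1:**
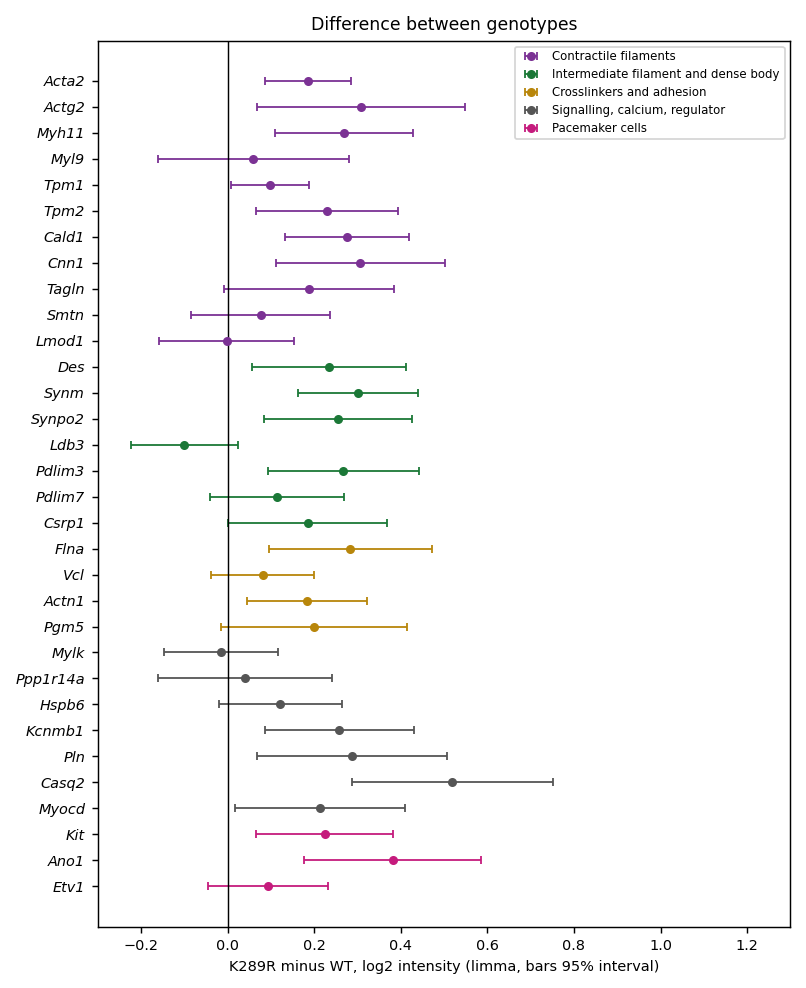
Difference between K289R and WT for each of the 32 genes, as points on a log2 axis with limma's 95% interval as bars, in colours by role. Points lie right of 0 for 29 genes, with Casq2 farthest at 0.52, and left of 0 for Ldb3, Mylk and Lmod1.

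Of the 11 contractile filament genes 10 were higher in K289R, the median difference was 0.19, and 7 of the 11 had an unadjusted p under 0.05. Of all genes tested, 48% were higher and 4.43% were higher at that p. Acta2 ran from 12.59 over a median of 12.76 to 12.85 in K289R, and from 12.52 over 12.54 to 12.58 in WT. Every K289R array lay above every WT array, and the difference was 0.19 (SE 0.048, 95% interval 0.09 to 0.29, limma adjusted p = 0.253). Acta2 and Synm were the 2 members without overlap on the higher side, and 0 members were without overlap on the lower side, where 0.0722% and 0.0944% of all genes tested were. Actg2, the gamma actin of visceral muscle, ran from 11.01 over a median of 11.80 to 11.92 in K289R, and from 11.17 over 11.38 to 11.44 in WT. Thus 6 K289R arrays lay above all WT arrays and 1, replicate 3, below them all, with a difference of 0.31 (SE 0.113, limma adjusted p = 0.456). Actin transcripts are close in sequence, and probe sequences were not used here, so signal shared between Acta2 and Actg2 was not tested.

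Myh11, the heavy chain of smooth muscle myosin, ran from 10.91 over a median of 11.24 to 11.46 in K289R, and from 10.77 over 10.95 to 11.16 in WT. The groups overlapped, with 5 K289R arrays above the highest WT array, and the difference was 0.27 (SE 0.076, limma adjusted p = 0.334). Cnn1, calponin, which holds back actin-activated myosin, ran from 10.97 over 11.56 to 11.66 in K289R and from 11.06 over 11.09 to 11.27 in WT, a difference of 0.31 (SE 0.092). Cald1, caldesmon, another actin-bound brake on myosin, ran from 8.23 over 8.56 to 8.70 in K289R and from 8.14 over 8.30 to 8.37 in WT, a difference of 0.28 (SE 0.068, limma adjusted p = 0.227). For Cald1, 6 of 7 K289R arrays lay above the highest WT array. The tropomyosin genes, whose products lie along the actin filament, differed by 0.23 for Tpm2 (SE 0.078) and by 0.098 for Tpm1 (SE 0.043).

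The intervals of the remaining 4 filament genes included 0. Tagln, the actin-bundling transgelin, ran from 10.13 over 10.67 to 10.81 in K289R and from 10.24 over 10.39 to 10.61 in WT, a difference of 0.19 (95% interval −0.0083 to 0.38). Myl9 differed by 0.059 (95% interval −0.16 to 0.28). In K289R it ran from 11.44 over 12.04 to 12.37, and in WT from 11.83 over 11.99 to 12.08, so that K289R replicate 3 lay below all other arrays. Smtn, smoothelin, a protein of fully contractile muscle, differed by 0.076 (95% interval −0.08 to 0.24), whereas its dimmer second probe set differed by 0.26. Lmod1, leiomodin, which starts actin filaments, differed by −0.0021 (95% interval −0.16 to 0.15). Its levels ran from 8.38 over 8.64 to 8.97 in K289R and from 8.51 over 8.64 to 8.69 in WT, with the WT arrays wholly inside the K289R range. Lmod1 and Csrp1 lie 25 and 21 places from Nr5a2 in the order of tested genes on chromosome 1, and within 10 Mb of it by RefSeq's GRCm38.p6 gene positions.

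**Figure D2:**
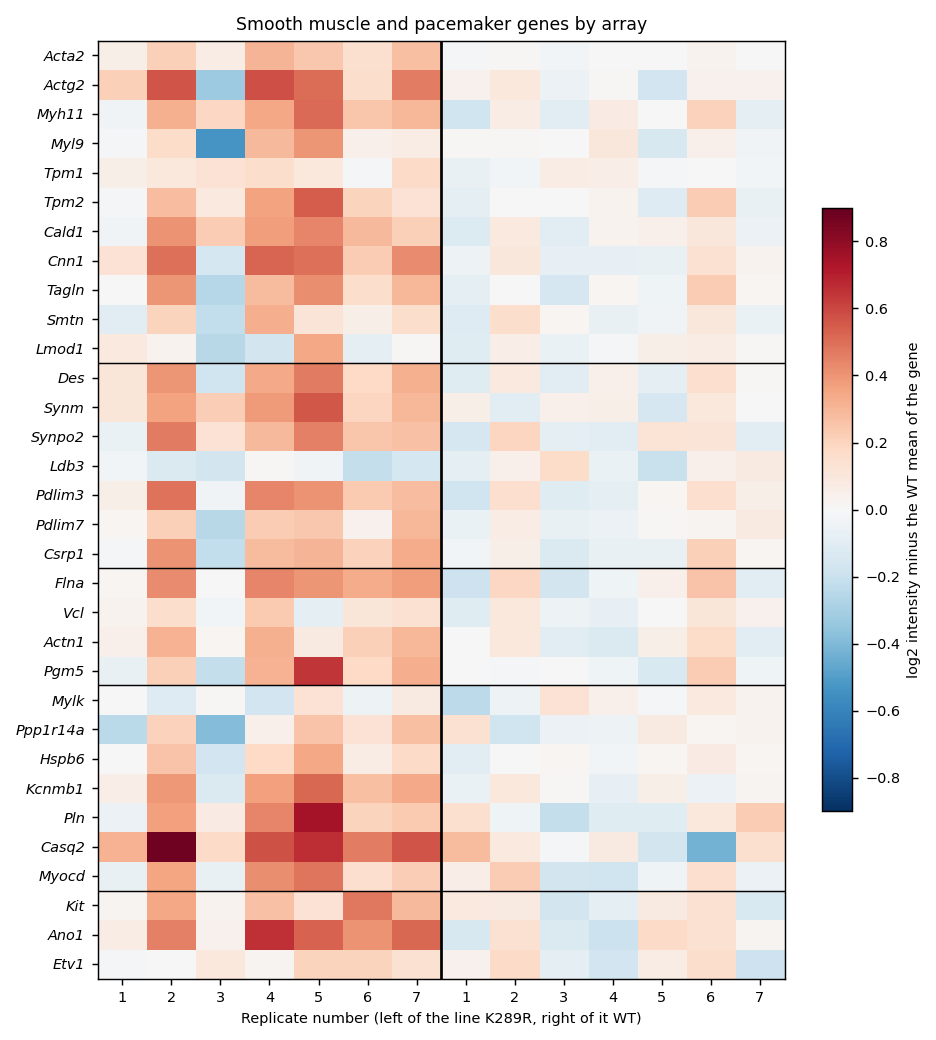
Log2 intensity of each gene on each array minus that gene's WT mean, with 7 K289R arrays left of the line and 7 WT arrays right of it, and horizontal lines between roles. K289R replicates 2, 4, 5 and 7 are red over most genes, while K289R replicates 1 and 3 are pale or blue in many of them.

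Of 7 genes of intermediate filaments, dense bodies and related LIM proteins 6 were higher in K289R, the median difference was 0.23, and 5 of the 7 had an unadjusted p under 0.05. The shares over all genes tested were 48% higher and 4.43% higher at that p. Synm, synemin, a partner of desmin filaments, ran from 9.06 over a median of 9.25 to 9.51 in K289R, and from 8.80 over 8.9995 to 9.05 in WT. The groups did not overlap, and the difference was 0.30 (SE 0.066, 95% interval 0.16 to 0.44, limma adjusted p = 0.129). Des, the muscle intermediate filament desmin, ran from 11.12 over 11.62 to 11.77 in K289R and from 11.19 over 11.31 to 11.45 in WT, a difference of 0.23 (SE 0.085). K289R replicate 3 was below all WT arrays in Des while 5 K289R arrays were above them all.

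Pdlim3, an actinin-binding LIM protein gene, differed by 0.27 (SE 0.083), and Synpo2, an actin-bundling protein of dense bodies, by 0.26 (SE 0.081). Csrp1, a LIM protein gene of smooth muscle, differed by 0.19 (SE 0.087) and Pdlim7 by 0.11 (SE 0.073). Ldb3, which encodes a Z-disc protein best known in striated muscle, was the member with the lowest difference, −0.10 (SE 0.059, 95% interval −0.22 to 0.02). It ran from 9.90 over 9.99 to 10.12 in K289R and from 9.91 over 10.16 to 10.28 in WT, with 1 K289R array above the WT mean. Des and Pgm5 also had a probe set shared with another gene, which was left out.

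The 4 genes of actin crosslinkers and adhesion plaques were all higher, by 0.081 to 0.28, where 48% of all genes tested were higher. Flna, filamin A, which links actin to the membrane, ran from 11.04 over 11.41 to 11.48 in K289R and from 10.85 over 11.00 to 11.29 in WT, a difference of 0.28 (SE 0.089, limma adjusted p = 0.392). Actn1, alpha-actinin, differed by 0.18 (SE 0.065), with all 7 K289R arrays above the WT mean. Pgm5, a plaque protein of smooth muscle, differed by 0.20 (SE 0.102), and Vcl, vinculin, by 0.081 (SE 0.056). Flna, Actn1 and Vcl are made by most cells, not by muscle alone.

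Among kinase, calcium, channel and regulator genes the differences were the most uneven, from −0.016 to 0.52, with a median of 0.21. Casq2, which encodes the calcium-binding protein of the sarcoplasmic reticulum, ran from 7.97 over a median of 8.36 to 8.67 in K289R, and from 7.37 over 7.88 to 8.08 in WT. In K289R 6 of 7 arrays lay above the highest WT array, and the difference of 0.52, a fold of 1.43, was the largest of the 32 (SE 0.110, 95% interval 0.29 to 0.75, limma adjusted p = 0.124). Without the arrays with Fabp6 signal it was 0.41 (SE 0.094). Pln, phospholamban, which restrains the calcium pump of that store, ran from 8.43 over 8.71 to 9.23 in K289R and from 8.27 over 8.44 to 8.71 in WT, a difference of 0.29 (SE 0.104).

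Kcnmb1, the muscle subunit of the large-conductance potassium channel, ran from 8.82 over 9.29 to 9.47 in K289R and from 8.88 over 8.96 to 9.05 in WT. K289R replicate 3 was below all WT arrays and 5 K289R arrays above them, with a difference of 0.26 (SE 0.082). Myocd, the gene of the SRF coactivator myocardin, ran from 8.30 over 8.59 to 8.85 in K289R and from 8.19 over 8.33 to 8.60 in WT, and differed by 0.21 (SE 0.093). Hspb6, a small heat shock protein tied to relaxation, differed by 0.12 (SE 0.067). Mylk, the gene of myosin light chain kinase, differed by −0.016 (95% interval −0.15 to 0.12), with levels from 10.08 to 10.39 in K289R and from 10.02 to 10.39 in WT. Ppp1r14a, whose product CPI-17 inhibits myosin phosphatase, differed by 0.040 (95% interval −0.16 to 0.24), and its K289R arrays ran from 7.92 over 8.44 to 8.58, against 8.13 over 8.33 to 8.45 in WT.

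The 3 pacemaker cell genes were all higher in K289R, and 2 of them, Kit and Ano1, had an unadjusted p under 0.05. Among all genes tested, 48% were higher and 4.43% were higher at that p. Ano1 ran from 8.15 over a median of 8.57 to 8.77 in K289R, and from 7.92 over 8.14 to 8.29 in WT. In K289R 5 arrays lay above all WT arrays, and the difference was 0.38, a fold of 1.302 (SE 0.097, 95% interval 0.18 to 0.59, limma adjusted p = 0.251). Kit ran from 8.92 over 9.16 to 9.37 in K289R and from 8.74 over 8.98 to 9.03 in WT, a difference of 0.22 (SE 0.075, limma adjusted p = 0.413). All 7 K289R arrays lay above the WT mean of Kit, and 4 above the highest WT array. Etv1, a transcription factor gene of these cells, ran from 7.52 over 7.63 to 7.74 in K289R and from 7.35 over 7.57 to 7.71 in WT, a difference of 0.093 (95% interval −0.05 to 0.23), and 0.064 on its second probe set. Mast cells also carry Kit. Of the 8 mast cell markers 6 lay below the level needed for testing, and the mean of the list ran from 5.53 to 6.11 in K289R and from 5.64 to 6.03 in WT.

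**Figure D3:**
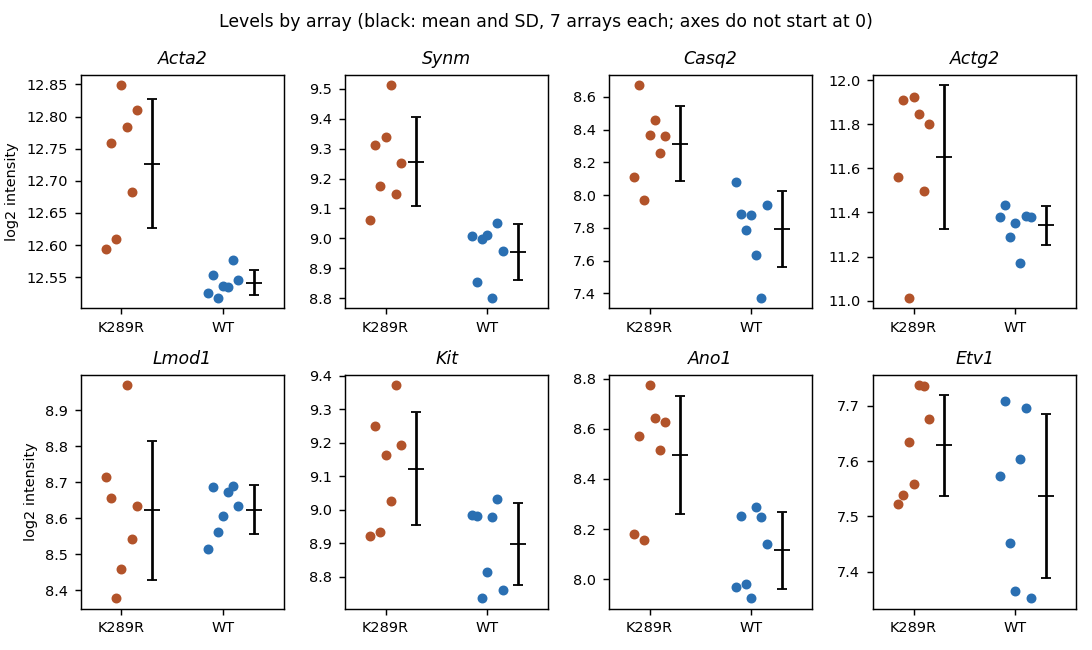
Log2 intensity by array (points, K289R left and WT right) for 5 muscle genes and the 3 pacemaker cell genes, with the mean and SD over 7 arrays in black. Acta2 and Synm show no overlap, Actg2 has a single low K289R array at 11.01, and Lmod1 has equal centres with a wider K289R range.

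The spread between mice was wider in K289R for most of these genes. The SD over 7 arrays was larger in K289R for 28 of the 32, where it was so for 63.1% of all genes tested, and the median ratio of K289R SD to WT SD was 1.64, against 1.17 over all genes tested. Among the filament genes it was larger in 11 of 11. Actg2 had an SD of 0.33 in K289R and 0.087 in WT, Myl9 0.30 in K289R and 0.076 in WT, and Acta2 0.0999 in K289R and 0.019 in WT. The 4 exceptions were Casq2, Ldb3, Mylk and Etv1. The difference in spread was not tested.

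The wider spread in K289R followed the same arrays from gene to gene. K289R replicate 3 was the lowest K289R array in 18 of the 32 genes and replicate 1 in 10, while replicate 5 was the highest in 15 and replicate 4 in 9. How often each array was lowest or highest over all genes tested was not counted. The median deviation of the 32 genes from their WT means was −0.028 on K289R replicate 3, 0.011 on replicate 1, 0.19 on replicate 6, 0.27 on replicate 7, 0.32 on replicate 4, 0.34 on replicate 2 and 0.40 on replicate 5. On WT arrays it ran from −0.065 to 0.11, highest on replicate 6, which was the highest WT array in 17 of the 32 genes. Thus K289R replicates 1 and 3 lay within the WT range and the other 5 above it. Leaving out 1 array in turn gave a median difference from 0.18, without K289R replicate 5, to 0.26, without K289R replicate 3.

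**Figure D4:**
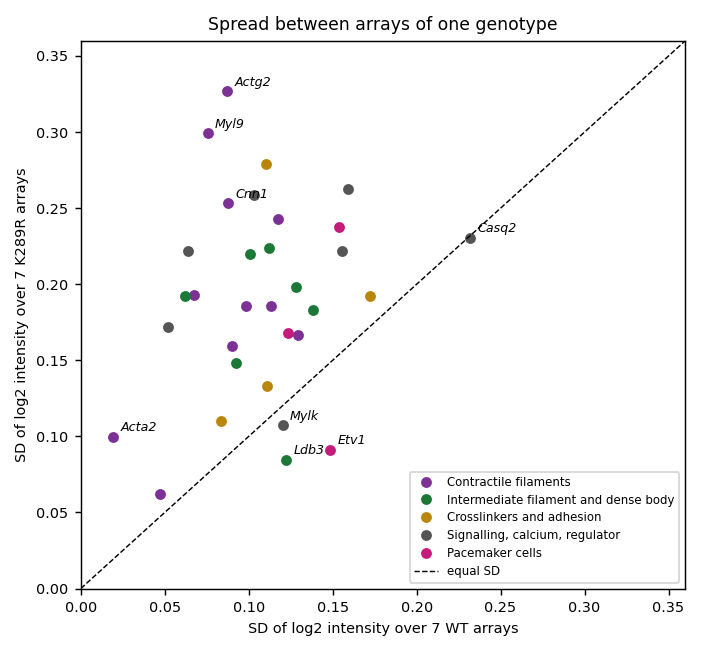
SD of log2 intensity over 7 K289R arrays (vertical axis) against that over 7 WT arrays (horizontal axis), a point for each of the 32 genes, with a dashed line at equal SD. Actg2, Myl9 and Cnn1 lie far above the line, and Ldb3, Mylk and Etv1 below it.

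Within a genotype most of the 32 genes moved together from mouse to mouse. With genotype means removed, the median Pearson r with the mean of the other filament genes was 0.79 over 14 arrays, and 16 of the 32 had an r above 0.8, as did 0.2503% of all tested genes outside the set. The median r of those other genes was 0.032. Over the 496 pairs of members the median r was 0.57, against −0.0043 over all pairs of tested genes. The closest pair was Tagln with Des at 0.97. All these values share the same 14 tissue pieces and arrays, and are given as a description.

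Coupling was not even across roles. Des had an r of 0.98 with the filament mean, Cnn1 0.94, Hspb6 0.94, Tagln 0.93, Pgm5 0.91, and Pdlim3 and Csrp1 0.90 each. Myocd had 0.85. At the other end stood Mylk with 0.076, Tpm1 with 0.16, Etv1 with 0.21 and Ldb3 with 0.29. Vcl had 0.41. Of the 3 genes with a CArG box upstream, Myl9, at 0.85, was the only one with an r above 0.5. The genes with a variant but no box were all above 0.5, Acta2 with 0.86, Synm with 0.69, Hspb6 with 0.94 and Pdlim3 with 0.90. Over the whole set 25 genes had an r above 0.5, as did 7.18% of tested genes outside it. A link between motif and r was not tested. Among pacemaker cell genes Ano1 followed the filament genes with 0.81 and Kit less so with 0.41. Lmod1 had 0.50. Casq2 had 0.43, and 0.89 without the 4 arrays with Fabp6 signal.

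The values of r were mostly higher across K289R arrays, which also had the wider spread. Within K289R alone the median r was 0.87 and 21 of the 32 were above 0.8, and within WT alone the median was 0.60 and 7 were above 0.8. In 24 of the 32 the r was higher in K289R. The matching shares of genes outside the set were not computed within a single genotype, so these counts have no background beside them. Casq2 had an r of 0.88 in K289R and −0.63 in WT, Ppp1r14a 0.88 in K289R and −0.51 in WT, and Kcnmb1 0.98 in K289R and −0.042 in WT. WT replicates 1 and 6, which had Fabp6 signal, held the highest and lowest WT level of Casq2 (8.08 and 7.37). The same arrays held the lowest and highest WT filament mean (10.31 and 10.49), and r within WT without them was not computed. Acta2, Myh11 and Des were coupled within both genotypes, with 0.87, 0.75 and 0.98 in K289R and 0.91, 0.89 and 0.97 in WT. The difference in r between genotypes was not tested.

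**Figure D5:**
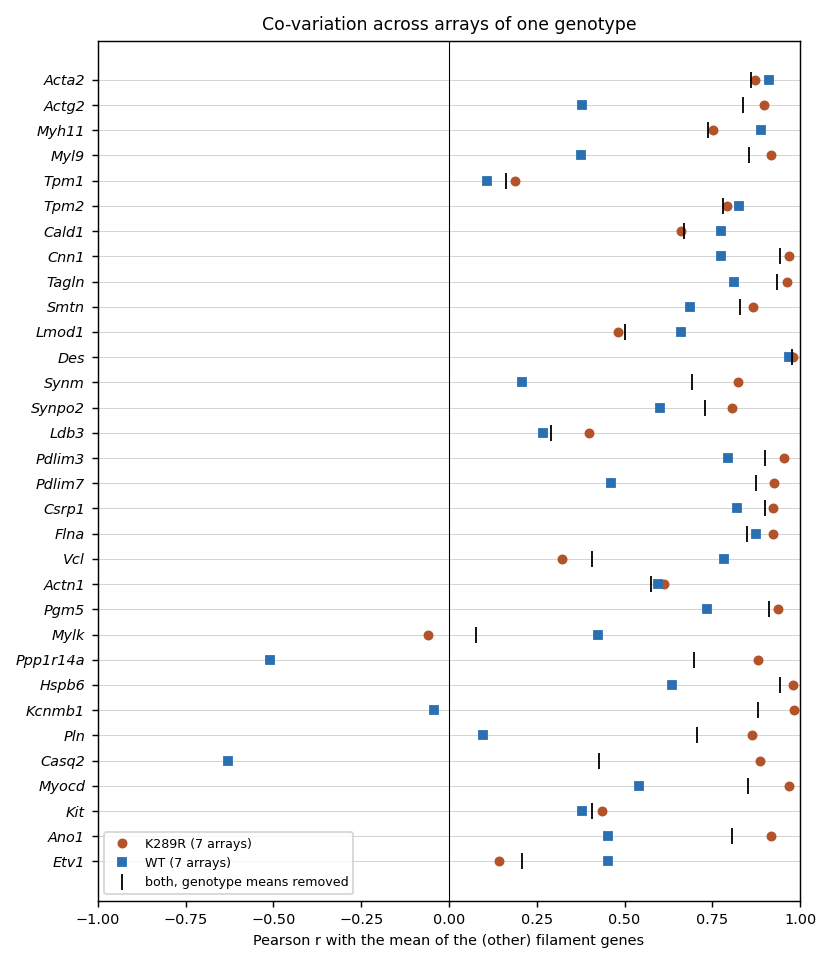
Pearson r of each gene with the mean of the filament genes other than itself, within 7 K289R arrays (circles), within 7 WT arrays (squares) and over both with genotype means removed (bars). Des, Acta2 and Flna sit near 0.9 in both genotypes, and Casq2, Ppp1r14a and Kcnmb1 are high in K289R and below 0 in WT.

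For 6 gene pairs the relation was tested within each genotype by exact permutation over the 7 arrays, 12 relations in all. The members in these pairs came from a list chosen with earlier results of these data known, and followed for its co-variation. Their p-values are therefore no independent support for coupling. Benjamini-Hochberg adjustment was made over the 12 relations for r and for rho apart, not over both together. Myh11 with Des had a Spearman rho of 0.93 in K289R and 0.93 in WT (exact permutation p = 0.00675 and adjusted p = 0.0405 in each), with a Pearson r of 0.68 in K289R (adjusted exact p = 0.215) and 0.87 in WT (adjusted exact p = 0.0691). Without the 2 arrays farthest from the median of Myh11 these r were 0.93 in K289R and 0.68 in WT. Myh11 with Acta2 had an r of 0.79 in K289R and 0.84 in WT (exact permutation p = 0.0230 and 0.0194, adjusted p = 0.0691 in each), with a rho of 0.82 and 0.79 (adjusted exact p = 0.137 and 0.144), none of which passed, and r without the 2 farthest arrays of 0.95 and 0.55.

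The pairs that hold Kit or Col3a1 did not pass either, by r or by rho. Kit with Etv1 had an r of 0.28 in K289R (adjusted exact p = 0.527) and 0.89 in WT (adjusted exact p = 0.0691), with a rho of 0.32 and 0.71 (adjusted exact p = 0.595 and 0.211), and r without the 2 farthest arrays of −0.054 and 0.93. Kit with Ano1 had 0.62 in K289R and 0.57 in WT (adjusted exact p = 0.265 in each), with a rho of 0.29 and 0.25 (adjusted exact p = 0.595 in each), and r turned to −0.62 in K289R without replicates 1 and 3, and was 0.69 in WT without replicates 3 and 7. Myh11 with Kit had 0.35 in K289R and 0.41 in WT (adjusted exact p = 0.498 and 0.432), a rho of 0.32 and 0.36 (adjusted exact p = 0.595 in each), and 0.45 and 0.66 without the 2 farthest arrays. Myh11 with Col3a1, a fibrillar collagen gene, had 0.56 in K289R and 0.65 in WT (adjusted exact p = 0.268 and 0.215), a rho of 0.32 and 0.61 (adjusted exact p = 0.595 and 0.333), and 0.90 and 0.66 without the 2 farthest arrays.

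Outside the set, the 10 tested genes with the highest r with the filament mean, over 14 arrays with genotype means removed, were Gnao1, Rbpms, Slc25a23, Fxyd6, Fxyd1, Nkd2, Pygm, Atp2b4, Tmem47 and Cryab, with r from 0.90 to 0.94. All 10 were higher in K289R, as were 48% of all genes tested. Their differences ran from 0.050 for Slc25a23 (SE 0.078) to 0.36 for Atp2b4, a plasma membrane calcium pump (SE 0.098, limma adjusted p = 0.306). Gnao1, which encodes a G protein subunit abundant in neurons, had an r of 0.97 in K289R and 0.75 in WT. Cryab, a small heat shock protein gene, had 0.97 in K289R and 0.12 in WT.

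Further genes of contraction and its control, listed apart from the set, were higher for 21 of the 23 that were tested, and their median was 0.10. By limma 0 of the 23 passed over all genes, and 7 higher and 0 lower had an unadjusted p under 0.05. Of all genes tested, 48% were higher, and 4.43% were higher and 4.05% lower at that p. Gucy1a1, a subunit of the nitric oxide receptor that relaxes muscle, differed by 0.38 (SE 0.091, limma adjusted p = 0.179), Slc8a1, a sodium-calcium exchanger, by 0.25 (SE 0.087), and Ppp1r12a, the targeting subunit of myosin phosphatase, by 0.15 (SE 0.057). Of 19 tested genes of muscle attachment and caveolae, 15 were higher and 4 lower with a median of 0.13, and by limma 0 passed, with 9 higher and 0 lower at an unadjusted p under 0.05. Fermt2, an integrin activator, differed by 0.30 (SE 0.091), Nexn, an actin-binding protein gene, by 0.28 (SE 0.077) and Cav1, caveolin, by 0.27 (SE 0.091).

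SRF and its partners were mixed. Of the 8 genes 3 were higher and 5 lower, with a median of −0.018, and by limma 0 passed and 1, Tead1, had an unadjusted p under 0.05. The shares over all genes tested were 48% higher and 4.43% higher at that p. Srf differed by −0.058 (SE 0.074), Foxf1, a mesenchymal forkhead gene, by 0.20 (SE 0.147) and Tead1, a muscle gene regulator, by 0.25 (SE 0.063, limma adjusted p = 0.236). Other genes used for interstitial cells were 4 higher and 5 lower with a median of −0.0016, and by limma 0 of 9 passed, with 2 higher and 0 lower at an unadjusted p under 0.05. Pdgfra, the receptor of the PDGFRA-positive interstitial cells and of fibroblasts, differed by 0.37 (SE 0.152), Kcnn3, a potassium channel gene of those cells, by 0.24 (SE 0.093) and Prkcq by 0.14 (SE 0.065).

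Markers of other cell types of the wall followed the filament genes to different degrees. Over 14 arrays with genotype means removed, the r of a list's mean with the filament mean was 0.71 for pericytes, 0.68 for epithelium, 0.60 for neurons and glia and 0.55 for fibroblasts. It was 0.30 for fat cells, 0.12 for endothelium, −0.16 for striated muscle and −0.44 for lymphocytes. These lists share the arrays and tissue pieces with the 32 genes. Of 12 fibroblast and matrix genes 11 were higher, with a median of 0.17, and the list mean ran from 9.45 to 9.84 in K289R and from 9.37 to 9.75 in WT. Dcn differed by 0.30 (SE 0.087), Lum by 0.32 (SE 0.098) and Col3a1 by 0.20 (SE 0.089). With the fibroblast list mean as a covariate, 6 of the 32 members were higher at an unadjusted p under 0.05, as were 2.74% of all genes tested in that fit, their median difference was 0.10, and Casq2 was at 0.53, Synm at 0.29, Ano1 at 0.20 and Acta2 at 0.14. Of 6 pericyte genes, which share the contractile program of vessels, 6 were higher, with a median of 0.18. The list means ran from 8.98 to 9.38 in K289R and from 8.92 to 9.19 in WT. Among pericyte genes the smallest p belonged to Rgs5, Kcnj8 and Abcc9, with differences of 0.20 (SE 0.072), 0.23 (SE 0.087) and 0.18 (SE 0.084). Of 8 endothelial genes 8 were higher, with a median of 0.15 and list means from 8.35 to 8.93 in K289R and from 8.21 to 8.91 in WT. Among endothelial genes the smallest p belonged to Esam, Lyve1 and Flt4, with differences of 0.22 (SE 0.115), 0.14 (SE 0.088) and 0.11 (SE 0.076). By limma 0 genes of these 3 lists passed over all genes, and 4, 3 and 0 were higher at an unadjusted p under 0.05. In the fit without a covariate, 48% of all genes tested were higher and 4.43% were higher at that p. A list mean used as a covariate comes from the same arrays, and 11 of the 12 fibroblast genes were themselves higher in K289R. Such a fit cannot assign a part of the difference to a cell type. The part of other cell types in the difference of the 32 genes was not tested.

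By limma 0 genes of the neuron and glia, epithelial and lymphocyte lists passed over all genes. At an unadjusted p under 0.05, 2 neuron and glia genes were higher and 1 lower, and 0 genes of the other lists differed. Of all genes tested, 4.43% were higher and 4.05% lower at that p, and 48% were higher at any p. Of 10 enteric neuron and glia genes 5 were higher and 5 lower, with a median of −0.0017. Their list means ran from 7.32 to 7.55 in K289R and from 7.36 to 7.50 in WT, with Vip at 0.49 (SE 0.196), Sox10 at 0.13 (SE 0.061) and the glial filament gene Gfap at −0.17 (SE 0.057). Epithelial genes had a median of −0.0022 over 12, with list means from 12.50, on K289R replicate 3, to 12.65 in K289R and from 12.58 to 12.64 in WT. Among epithelial genes the smallest p belonged to Cdx1, Cdx2 and Cdh1, with differences of −0.19 (SE 0.098), −0.12 (SE 0.1003) and 0.048 (SE 0.042). With the epithelial list mean as a covariate 24 of the 32 members were higher at an unadjusted p under 0.05, as were 4.23% of all genes tested in that fit. Their median was 0.24, and Actg2 at 0.39 and Casq2 at 0.58 passed limma's test over all genes (adjusted p = 0.0391 for each, against 0.0391 to 0.898 for Actg2 and 0.0391 to 0.421 for Casq2 over all alternatives). All 6 lymphocyte genes were higher, with a median of 0.29. Their list means were wide, from 8.398 to 9.41 in K289R and from 8.10 to 9.27 in WT, with Ptprc at 0.32 (SE 0.169), Cd3g at 0.58 (SE 0.335) and Cd3e at 0.40 (SE 0.264). The lymphocyte mean was above 9 on K289R replicates 3, 5 and 6 and on WT replicate 3. K289R replicates 3 and 5 had the lowest and the highest filament mean.

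Striated muscle genes had a median near 0. Of 10 tested genes of skeletal and cardiac muscle 5 were higher and 5 lower with a median of 0.0011, and by limma 0 passed and 1 was higher at an unadjusted p under 0.05. Of all genes tested, 48% were higher and 4.43% were higher at that p. Myh1 and Myh4, myosins of fast skeletal fibres, lay below the level needed for testing. The list mean ran from 6.98 to 7.13 in K289R and from 6.88 to 7.10 in WT. Acta1, the skeletal actin gene, differed by 0.27 (SE 0.102), Myh6 by 0.20 (SE 0.093) and Ckm by 0.14 (SE 0.070). Acta1 ran from 9.002 to 9.78 in K289R and from 8.89 to 9.22 in WT. Of 5 tested fat cell genes 4 were higher, with a median of 0.13, and by limma 0 passed and 0 had an unadjusted p under 0.05. The list means ran from 8.43 to 9.58 in K289R and from 8.53 to 9.18 in WT. Among fat cell genes the smallest p belonged to Fabp4, Adipoq and Plin1, with differences of 0.37 (SE 0.228), 0.18 (SE 0.142) and 0.13 (SE 0.153).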

How the data were processed

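RNA of 14 jejunums was measured on Affymetrix arrays. The authors deposited an intensity for each of 41345 probe sets and array on a linear scale, and Affymetrix Expression Console is named, per the submitters' processing notes. The software version and the steps of background correction, probe summary and scaling were not given in the sources used here. Because the deposited intensities have near-equal medians, they were not normalized again, and were log2-transformed. A global shift between genotypes would not be seen.

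Names came from GEO's annotation of the platform (23521 probe sets with 1 gene symbol, 1814 with several and left out, 16010 unnamed here), and the symbols of all 32 members also stand in the gene table. A gene was its brightest single-symbol probe set, and those averaging under log2 6.25, the 25th percentile over probe sets, were not tested. Older list names were brought to current symbols through synonyms. Genotypes were compared by limma 3.58.1 under R 4.3.3 (lmFit, eBayes, 2-sided, no covariate, Benjamini-Hochberg over 18010 genes, threshold 0.05). The standard errors are limma's. Gene pairs were tested by exact permutation, 2-sided, with Benjamini-Hochberg adjustment over the 12 relations, apart for Pearson r and Spearman rho. Precision is limited by the number of arrays (median SE 0.067 over all genes). In simulated data of 18010 genes for this comparison, 64.2% of genes changed by 0.3 log2 and 91.0% of those changed by 0.5 were recovered, and 8 unchanged genes were called. The noise of both genotypes was drawn from each gene's WT SD, whereas the SD was larger in K289R for 63.1% of all genes tested. Recovery at the K289R spread of all genes or of the 32 members, or among genes that vary together, was not tested. The median SE of the 32 members was 0.079. Their median ratio of K289R SD to WT SD was 1.64, against 1.17 over all genes tested. The p-values measure the spread between these mice.

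Members and lists were chosen with earlier results of these data known. Named genes were the 32 members, Nr5a2, Fabp6, up to 3 genes of each other list with the smallest p, 10 genes most like the filament mean and markers near the floor. Genes of other lists named beyond these were chosen after their values were seen. Same-numbered arrays of both genotypes mostly did not deviate together (r over 0.1 in 1 of 7 pairs), so they were not treated as paired. A weak pairing would not be seen this way. Alternatives were other normalizations, filters, probe set choices, variance models, arrays, covariates and a replicate block.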

Additional observations from a re-analysis of the deposited data

Results flagged for a closer look

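A single array lay far from the others of its group in 1 of the 64 combinations of gene and genotype that were examined. Pgm5 had a log2 intensity of 10.63 on WT replicate 6, and the nearest of the other WT arrays was at 10.40. Chance gives such a gap in about 5% of groups. WT replicate 6 was also the highest WT array for 17 of the 32 genes. The low values of Actg2 and Myl9 on K289R replicate 3 did not reach this mark.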

How the results depend on the processing

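Without 1 array in turn, 17 to 25 of the 32 genes were higher at an unadjusted p under 0.05, as were 3.45% to 6.16% of all genes tested in those fits. The median difference of the 32 was 0.18 to 0.26, and their median r with the filament mean was 0.76 to 0.82 (this last range was added after seeing the data). The count was 13 without the 4 arrays with Fabp6 signal (3.73% of all genes tested) and 6 with the fibroblast covariate (2.74% of all genes tested). The r was 0.87 within K289R, 0.60 within WT and 0.81 without those 4 arrays. Over all genes, 8 passed, and 4 to 14 without 1 array: 4 without K289R replicate 4, WT replicate 3 or WT replicate 4, 5 without K289R replicate 7 and 14 without K289R replicate 5. It was 14 with array weights and 5 without the 4 arrays. With a replicate block it was 0 by limma, with 1465 at an unadjusted p under 0.05 in either direction. In that fit 20 of the 32 members were higher at that level, as were 4.55% of all genes tested. The labels do not say whether the replicate numbers pair the arrays. Of the 32 members, 26 kept their sign and their side of the threshold in every alternative, Actg2 and Casq2 passed with the epithelial covariate alone, and 4 small differences turned sign. Smtn was at −0.033 and Ppp1r14a at −0.033 with the fibroblast covariate, Ppp1r14a at −0.0076 without the 4 arrays, and Lmod1 at 0.028 with the epithelial covariate. Without 1 array Lmod1 ran from −0.060 to 0.039 and Mylk from −0.055 to 0.011. The causes were not tested.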
